A study of Mus musculus with 24 samples.

Results

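Timed sleep restriction (TSR) was imposed on mice in the first hours of the light phase, and the experiment described here followed gene expression in the mediobasal hypothalamus of these sleep-restricted mice from ZT7, an hour that follows the daily window of handling, to ZT13, early in the dark phase when mice become active. Zeitgeber time (ZT) counts hours from lights on. The comparison used the 3 arrays of TSR mice at ZT13 and the 3 arrays of TSR mice at ZT7, which are 6 of the 24 arrays of the series, and covered all 11871 genes that passed a filter on low signal. All mice carry the background strain label C57BL76J and were grouped by condition and time only, with 8 groups of 3 mice. TSR mice were gently handled to stay awake between ZT0 and ZT6 on 5 days in a row, slept freely for 2 days and were then restricted on 5 more days. Mice kept undisturbed alongside form the CON groups, and their arrays at ZT13 and ZT7 are used below to ask whether the change over these hours differed between TSR and CON. The labels name no transgene, sex or age, and at which point of this schedule tissue was collected was not stated in the labels used here. Total RNA was hybridised to Affymetrix whole-transcript arrays, 1 mouse per array, so each value is a log2 signal of 1 probe set in 1 animal.

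The mediobasal hypothalamus holds the arcuate and ventromedial nuclei, which govern feeding and energy use, beside the third ventricle and its ependymal lining. Daily rhythms in its cells are driven by a loop in which CLOCK and BMAL1 (encoded by Arntl) switch on their own repressors, the Per, Cry and Nr1d genes, and are paced by the nearby suprachiasmatic nucleus. Sleep loss is known to raise transcripts of neuronal activity, protein folding and glucocorticoid signalling in brain, and sleep afterwards lets many of them return.

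The tissue label was set against marker genes. Of the defining arcuate and ventromedial genes, the opioid and melanocortin precursor Pomc read 5.49, 6.44 and 5.34 log2 units in the TSR ZT13 arrays and 5.80, 5.64 and 5.63 in the TSR ZT7 arrays, and the ventromedial factor Nr5a1 read 5.56, 6.48 and 5.09 at ZT13 and 5.66, 5.51 and 5.55 at ZT7. These levels lay around the filter threshold of 5.86, and Pomc, Nr5a1 and Nkx2-1 were therefore not tested. Other arcuate genes, 13 markers in all, passed the filter. Markers of neighbouring regions were measurable too, among them striatal, cortical and forebrain cholinergic genes, and their levels are given beside the results with which they move. In tissue RNA, fewer cells of a type and less RNA per cell cannot be told apart.

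One array of the comparison stood apart before any gene was examined. The interquartile range of its signals, the width of the middle of the distribution over all probe sets, was 2.25 log2 units in TSR ZT13 replicate 2, against 3.09 and 3.27 in the other ZT13 arrays and 3.06 to 3.09 at ZT7. Genes of high signal read lower and genes of low signal read higher on it than on its companions. A further 3 arrays of the series were as narrow (2.12 to 2.18), at TSR ZT1 and CON ZT19. Results are therefore given both from all 24 arrays and from the 20 arrays left when the 4 narrow ones are dropped, which leaves TSR ZT13 with 2 arrays. The median residual standard deviation per gene was 0.36 log2 units in the fit to 24 arrays and 0.11 in the fit to 20. The number of arrays limits the precision throughout, and p-values measure the spread between these arrays, part of which may be technical.

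**Figure D1:**
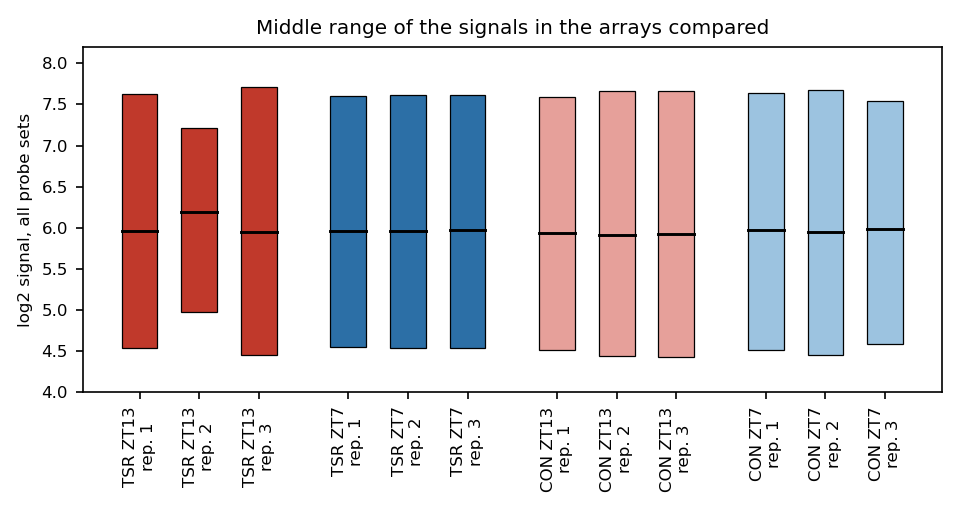
Bars span the lower to the upper quartile of the log2 signals over all probe sets, with the median as a black line, for each array of TSR ZT13, TSR ZT7, CON ZT13 and CON ZT7. TSR ZT13 replicate 2 spans 2.25 log2 units, less than any other array drawn.

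In the sleep-restricted hypothalamus 1 gene separated ZT13 from ZT7 beyond the spread of all 24 arrays: Slc17a7, which encodes the vesicular glutamate transporter of cortical excitatory neurons, was higher at ZT13. With only the narrow ZT13 array left out the count was still 1. With all 4 narrow arrays of the series left out, 417 genes passed, 294 of them higher and 123 lower at ZT13. The increases included motile cilium genes, cold-inducible RNA-binding genes and glucocorticoid-responsive genes. The decreases included forebrain cholinergic genes, the peptide genes Avp, Oxt and Sst, and vascular genes. Most of these changes were small, with a median size of 0.41 log2 units.

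The counts stood as follows. In the 24-array limma fit 0.00842% of the genes tested passed an adjusted p of 0.05, and 186 had an unadjusted p under 0.05. In the 20-array limma fit 2.48% passed as higher and 1.04% as lower at ZT13, and the median difference over all genes was 0.04 log2 units (-0.18 with 24 arrays). In CON 10.4% passed as higher and 5.37% as lower in the same fit. Counts of list members given below are to be set against these shares. Dropping 1 more of the TSR arrays compared left between 46 genes (without ZT13 replicate 3) and 155 (without ZT7 replicate 2). The excess of increases was not kept in every such fit: the 46 were 16 higher and 30 lower, while the 155 were 107 higher and 48 lower. Quantile normalizing the 20 arrays again gave 756, of which 379 were higher and 377 lower. Only 51 of the 417 differed by more than a fold of 1.5, and 1 by more than 1 log2 unit. Set against the narrow array, 248 of the 417 had the same sign in the 24-array fit, and the narrow array lay on the side of the other ZT13 arrays for 27.8% of them, against 33.5% of all genes. Without regard to any model, all 3 ZT13 values lay above all 3 ZT7 values for 229 genes (1.93%) and below them for 1108 genes (9.34%).

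The largest changes that met a naming rule are described in the next paragraphs. Some changes as large did not meet it, among them those of A530032D15Rik and Gm10874, and are given further below. The 12 increases and 12 decreases of greatest size were taken among genes called in the 20 arrays whose narrow-array value lay on the same side of the ZT7 mean. For 11 of the 12 increases all 3 ZT13 values lay above all 3 ZT7 values, and for all 12 decreases they lay below. Since that contrast chose the genes, nothing is read from these counts. The same holds for the lack of overlap given for single genes of this set below. Apart from Slc17a7, the lowest limma adjusted p among the 24 genes was 0.546 with all 24 arrays.

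**Figure D2:**
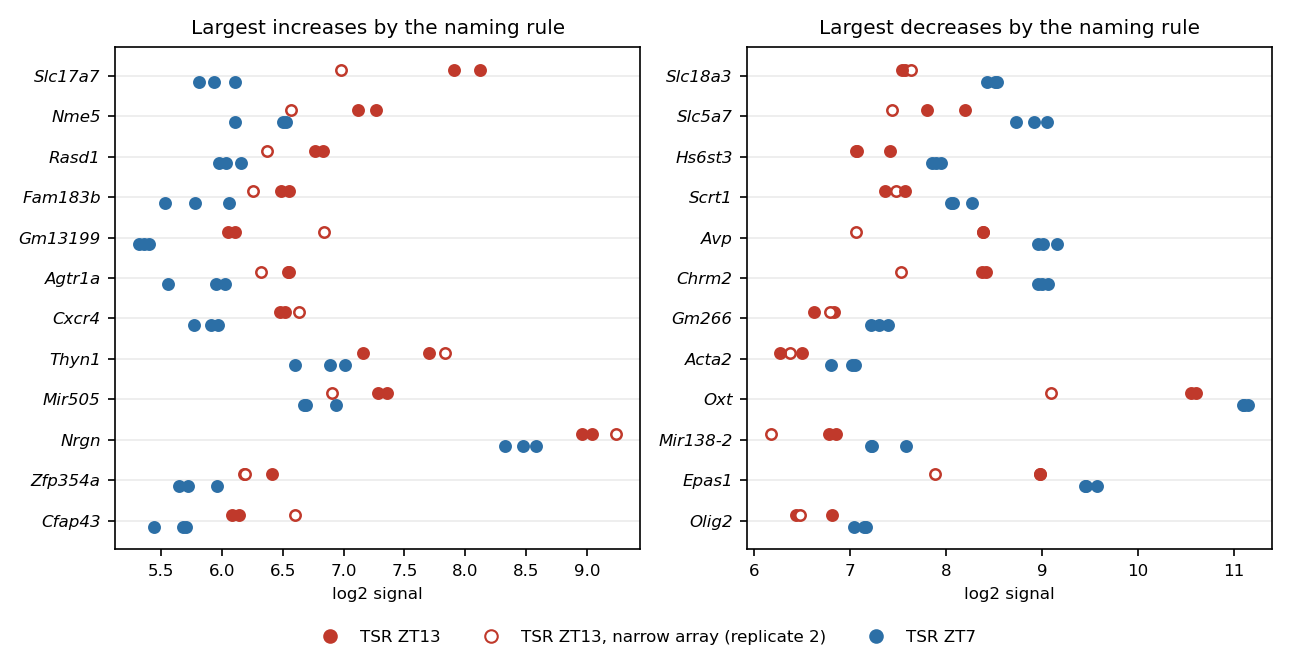
Each point is the log2 signal of 1 array for the 12 largest increases and the 12 largest decreases by the naming rule. TSR ZT13 is in red above TSR ZT7 in blue, with the narrow ZT13 array as an open circle. Slc17a7 stands furthest apart among the increases, and for Mir505 alone an open circle lies within the range of the ZT7 points.

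Slc17a7 was the largest increase. It read 8.12, 6.98 and 7.91 log2 units in TSR ZT13 replicates 1, 2 and 3, against 5.94, 6.11 and 5.81 in TSR ZT7 (values of a group are always given in that replicate order, and the second ZT13 value is the narrow array's). Every ZT13 array was above every ZT7 array, the narrow one by the least. The difference was 1.72 ± 0.21 log2 units (SE) in the 24-array limma fit with an adjusted p of 0.0011, and 2.06 ± 0.12 in the 20-array fit with an adjusted p of 1.87e-09, a fold of 4.18. The ZT7 levels lay at the 5.86 log2 units where the filter was set, so the size of the fold is uncertain. In CON mice the same gene stayed low at both times, at 5.65, 5.83 and 5.93 in ZT13 and 5.86, 5.81 and 5.82 in ZT7. It kept a difference of 1.96 to 2.17 when any 1 further TSR array was dropped.

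Other markers of cortex and thalamus moved with it in part. Of 13 tested, 3 rose in the 20-array limma fit, Slc17a7, Tbr1 and Mef2c, none fell, and the list's median was 0.09 against 0.04 over all genes. Tbr1, a transcription factor of deep-layer cortical neurons, read 7.24, 6.04 and 7.53 at ZT13 against 6.61, 6.44 and 6.93 at ZT7, so the narrow array lay below and the other ZT13 arrays above the ZT7 range. Its difference was 0.73 ± 0.16 in the 20 arrays (limma adjusted p = 0.018) and 0.28 ± 0.34 in the 24. Mef2c, a neuronal transcription factor, differed by 0.32 ± 0.08 in the 20 arrays (adjusted p = 0.0275). The summed level of the list was 10.88 to 11.69 log2 units at ZT13, 11.66 to 11.69 without the narrow array, against 11.49 to 11.55 at ZT7. Neurod6, a defining marker of cortical pyramidal neurons, read 2.39, 2.38 and 2.80 at ZT13 and 2.23, 2.53 and 2.79 at ZT7, far under the filter in every array. The part of cortical tissue in the difference of Slc17a7 was not tested.

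Nrgn, which encodes the calmodulin-binding postsynaptic protein neurogranin, also rose, but it did so in both conditions. It read 8.96, 9.24 and 9.04 at TSR ZT13 against 8.58, 8.47 and 8.33 at TSR ZT7, and 8.83, 9.01 and 8.94 at CON ZT13 against 8.29, 8.28 and 8.26 at CON ZT7. The groups did not overlap in either condition. Its 20-array limma differences were 0.54 ± 0.08 in TSR (adjusted p = 0.000618) and 0.65 ± 0.07 in CON (adjusted p = 3.45e-06).

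Rasd1, a small G protein of the Ras family that modulates how the suprachiasmatic clock answers light, behaved in the same way. Its signals were 6.76, 6.37 and 6.83 at TSR ZT13 against 6.15, 6.03 and 5.98 at TSR ZT7. In CON they were 7.85, 7.77 and 7.95 at ZT13 against 6.71, 7.08 and 6.81 at ZT7. All ZT13 arrays exceeded the ZT7 arrays of their condition, and the TSR arrays sat below the CON arrays at each time. The 20-array limma difference was 0.74 ± 0.11 in TSR (adjusted p = 0.000817) and 0.99 ± 0.10 in CON (adjusted p = 1.42e-06).

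Receptor genes were among the increases that CON did not share. Agtr1a, the angiotensin II type 1a receptor that acts in thirst and blood pressure control, read 6.55, 6.32 and 6.54 at TSR ZT13 against 5.56, 6.03 and 5.95 at TSR ZT7. Cxcr4, the receptor of the chemokine CXCL12, read 6.52, 6.63 and 6.47 against 5.91, 5.78 and 5.97. In both genes all ZT13 arrays lay above all ZT7 arrays. Both were chosen with the narrow array above the ZT7 mean, so its side is no separate evidence. Their ZT7 levels lay at the filter threshold, which makes the size of the differences uncertain. The 20-array limma differences were 0.70 ± 0.13 for Agtr1a (adjusted p = 0.00741) and 0.61 ± 0.11 for Cxcr4 (adjusted p = 0.00728). In CON they were -0.15 ± 0.12 and -0.07 ± 0.10, and neither passed.

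Of the remaining increases, Thyn1, which encodes a thymocyte nuclear protein, rose by 0.60 ± 0.15 log2 units in the 20 arrays, the zinc finger gene Zfp354a by 0.52 ± 0.14 and the predicted gene Gm13199 by 0.72 ± 0.17. Their limma adjusted p-values were 0.03, 0.0473 and 0.0292. Gm13199 read 6.11, 6.84 and 6.05 at ZT13 against 5.40, 5.36 and 5.32 at ZT7, so its ZT7 level was under the filter threshold, as was the mean of Zfp354a, and the size of both differences is uncertain. Nme5, Fam183b and Cfap43 are ciliary genes and are described with that group below.

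Probe sets for microRNA genes appeared on both sides, Mir505 among the increases and Mir138-2 among the decreases. The arrays measure signal at the microRNA gene and do not tell the mature arms apart. The mature sequences, from RefSeq on GRCm38.p6, are printed 5′ to 3′ to show what each gene encodes, with the seed, bases 2 to 8, in capitals. Mir505 lies at chrX:60394416-60394473 on the minus strand and Mir138-2 at chr8:94324312-94324379 on the plus strand, as spans of the arms printed.
mmu-miR-505-3p: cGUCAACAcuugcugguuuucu
mmu-miR-505-5p: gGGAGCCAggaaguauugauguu
mmu-miR-138-5p: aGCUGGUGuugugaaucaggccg
mmu-miR-138-2-3p: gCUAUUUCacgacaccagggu
No seed is shared among these 4 arms.

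Mir505 read 7.36, 6.90 and 7.28 at TSR ZT13 against 6.67, 6.69 and 6.94 at TSR ZT7, and the narrow array fell within the ZT7 range. Its 20-array difference was 0.55 ± 0.14 (limma adjusted p = 0.0403) and that in CON was -0.35 ± 0.13. Mir138-2, the source of a brain-enriched microRNA that acts at synapses, read 6.78, 6.18 and 6.85 at TSR ZT13 against 7.23, 7.22 and 7.58 at TSR ZT7, with no overlap. It fell by 0.53 ± 0.12 in the 20 arrays (limma adjusted p = 0.0186), and in CON it differed by 0.06 ± 0.10.

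Genes of acetylcholine neurons came first among the decreases chosen by the naming rule. Slc18a3, the vesicular acetylcholine transporter, Slc5a7, the high-affinity choline transporter, Chrm2, a muscarinic receptor, and Ngfr, the low-affinity neurotrophin receptor carried by basal forebrain cholinergic neurons, all fell between ZT7 and ZT13 in TSR mice in the 20 arrays. They were 4 of the 8 tested forebrain cholinergic and preoptic markers. None of the 8 rose, and the list's median was -0.41 against 0.04 over all genes.

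Slc18a3 read 7.57, 7.63 and 7.54 log2 units at TSR ZT13 against 8.53, 8.51 and 8.42 at TSR ZT7. Slc5a7 read 7.81, 7.44 and 8.20 against 9.05, 8.72 and 8.91. For both genes the ZT13 arrays lay below the ZT7 arrays, and the narrow ZT13 array of Slc18a3 was close to its companions. The limma differences were -0.94 ± 0.13 in the 20 arrays (adjusted p = 0.000618) and -0.91 ± 0.32 in the 24 for Slc18a3. They were -0.89 ± 0.13 (limma adjusted p = 0.000618) and -1.08 ± 0.41 for Slc5a7. In CON the level was lower and the direction of the difference was the other way: Slc5a7 read 6.06, 6.19 and 6.20 at CON ZT13 against 5.87, 5.69 and 5.63 at CON ZT7, a difference of 0.42 ± 0.11 in the 20 arrays (limma adjusted p = 0.0171).

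Chrm2 read 8.38, 7.53 and 8.42 at TSR ZT13 against 9.0, 8.96 and 9.06 at TSR ZT7, and fell by 0.61 ± 0.10 in the 20 arrays (limma adjusted p = 0.00149). Ngfr read 6.65, 7.60 and 6.79 against 7.58, 7.55 and 7.31. Its narrow array lay above every ZT7 array while its other ZT13 arrays lay below them, so the groups overlapped. Its 20-array difference was -0.76 ± 0.11 (limma adjusted p = 0.000999) and its 24-array difference -0.47 ± 0.23. In CON Chrm2 rose by 0.41 ± 0.09 (limma adjusted p = 0.00354), and Ngfr differed by -0.02 ± 0.10.

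The cholinergic list as a whole carried more signal in TSR ZT7 mice than in any other group compared. Its summed level was 10.47 to 10.92 log2 units at TSR ZT13 (10.78 to 10.92 without the narrow array) against 11.27 to 11.35 at TSR ZT7, and 10.46 to 10.51 at CON ZT13 against 10.35 to 10.52 at CON ZT7. Chat, the enzyme that makes acetylcholine, had a mean under the filter and was not tested, but its signals were 6.17, 6.43 and 5.83 at TSR ZT13 against 6.89, 6.78 and 6.92 at TSR ZT7, with no overlap. These cells lie mainly outside the mediobasal hypothalamus, in the basal forebrain and striatum. Whether the dissections held unequal amounts of that tissue was not tested.

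The peptide genes Avp and Oxt, made by neurons of the paraventricular and supraoptic nuclei, fell over the same hours. Avp, which encodes vasopressin, read 8.39, 7.06 and 8.38 at TSR ZT13 against 9.15, 9.01 and 8.95 at TSR ZT7, and Oxt, which encodes oxytocin, read 10.60, 9.09 and 10.55 against 11.09, 11.10 and 11.15. Neither gene's groups overlapped, and the narrow array was the lowest in each. Both genes were chosen with their ZT13 arrays on that side, so nothing is read from the lack of overlap. The narrow array also reads genes of high signal lower. In the 20 arrays Avp fell by 0.65 ± 0.07 log2 units (limma adjusted p = 4.72e-05) and Oxt by 0.53 ± 0.07 (adjusted p = 0.00058). Both fell in CON as well, by 0.67 ± 0.06 (limma adjusted p = 8.63e-07) and 0.31 ± 0.07 (adjusted p = 0.00415). They were the 2 of 9 paraventricular and supraoptic markers that passed in TSR, and 4 of the 9 fell in CON.

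Sst, the somatostatin gene, showed opposite directions in the 2 conditions. It read 11.65, 10.83 and 11.69 at TSR ZT13 against 12.07, 11.97 and 12.04 at TSR ZT7, and 12.45, 12.46 and 12.47 at CON ZT13 against 12.22, 12.16 and 12.26 at CON ZT7. The groups of each condition did not overlap. The 20-array limma difference was -0.36 ± 0.05 in TSR (adjusted p = 0.000392) and 0.25 ± 0.04 in CON (adjusted p = 0.000768). Of 12 factors and enzymes of GABA neurons, 3 fell in TSR and none rose: Sst, the interneuron transcription factor Lhx6 and the GABA-synthesising enzyme Gad1, the last by 0.25 ± 0.06 (limma adjusted p = 0.0251). In CON 6 of these 12 rose, against 10.4% of all genes.

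Adcyap1, which encodes the arousal-linked peptide PACAP, moved the other way from the peptides above. It read 7.24, 5.96 and 7.47 at TSR ZT13 against 6.58, 6.76 and 6.87 at TSR ZT7. The narrow array was the lowest of the 6 and the other ZT13 arrays the highest. The difference was 0.62 ± 0.12 in the 20 arrays (limma adjusted p = 0.00864) and 0.16 ± 0.34 in the 24. Sst and Adcyap1 were the only ones of 13 arcuate and ventromedial markers, the markers of the dissected region itself, to pass. The median of the 13 was -0.15 against 0.04 over all genes, and 12 of them had a negative difference. The summed level of the list was 11.66 to 12.31 at TSR ZT13 (12.28 to 12.31 without the narrow array) against 12.53 to 12.58 at TSR ZT7. It was 12.90 to 12.93 at CON ZT13 against 12.72 to 12.79 at CON ZT7. Most of this sum was the signal of Sst, whose levels are given above. The sum therefore mainly follows Sst and not the list as a whole. The part of these shifts in the other results was not tested.

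Other neuronal genes were lower at ZT13. Scrt1, a zinc finger repressor of the neuronal lineage, read 7.37, 7.48 and 7.57 at TSR ZT13 against 8.05, 8.07 and 8.27 at TSR ZT7, and fell by 0.66 ± 0.10 (20-array limma adjusted p = 0.00106). Its CON difference was 0.48 ± 0.09 (limma adjusted p = 0.00132), in the opposite direction. Hs6st3, a heparan sulfate sulfotransferase, fell by 0.66 ± 0.10 and the uncharacterised gene Gm266 by 0.57 ± 0.10. Neither of these passed in CON. Of 15 pan-neuronal genes, 3 fell and none rose in TSR: the neurofilament gene Nefl by 0.47 ± 0.08, the growth-associated tubulin regulator Stmn2 by 0.29 ± 0.06, and Gad1. Their limma adjusted p-values were 0.00479, 0.0124 and 0.0251.

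Vascular genes were part of the decreases. Epas1, the hypoxia-inducible factor of endothelium and astrocytes, read 8.98, 7.88 and 8.98 at TSR ZT13 against 9.58, 9.46 and 9.44 at TSR ZT7, and 9.87, 9.90 and 9.88 at CON ZT13 against 9.58, 9.59 and 9.42 at CON ZT7. At ZT13 the TSR arrays were therefore the lowest of the 4 groups and the CON arrays the highest. The 20-array limma difference was -0.52 ± 0.07 in TSR (adjusted p = 0.00023) and 0.36 ± 0.06 in CON (adjusted p = 0.000435).

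Acta2, the smooth muscle actin of arterioles, read 6.50, 6.38 and 6.28 at TSR ZT13 against 7.06, 6.81 and 7.02 at TSR ZT7, with no overlap. It fell by 0.57 ± 0.12 in the 20 arrays (limma adjusted p = 0.0126) and differed by -0.58 ± 0.12 in the 24. The endothelial adhesion gene Pecam1 fell by 0.44 ± 0.11 and the VEGF receptor Flt1 by 0.34 ± 0.08 (limma adjusted p = 0.0359 and 0.03). These 3 were the ones of 12 endothelial and mural markers that passed. None rose, and the list's median was -0.23. The summed level of the list was 10.69 to 11.25 at TSR ZT13 (11.14 to 11.25 without the narrow array) against 11.26 to 11.32 at TSR ZT7.

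Olig2, a transcription factor of the oligodendrocyte lineage, read 6.44, 6.48 and 6.81 against 7.15, 7.17 and 7.04, and fell by 0.49 ± 0.11 (20-array limma adjusted p = 0.0184). Of 12 precursor markers it was the 1 that fell, and Pdgfra, the growth factor receptor of these precursors, was the 1 that rose, by 0.29 ± 0.08 (adjusted p = 0.0366), with a median of 0.03 for the list. Pdgfra read 9.09, 8.0 and 9.22 at TSR ZT13 against 8.85, 8.84 and 8.89 at TSR ZT7, with the narrow array lowest, and differed by -0.09 in the 24 arrays. None of 16 myelin genes, 15 astrocyte genes and 9 microglial genes passed in either direction, although 4, 5 and 4 of them had an unadjusted limma p under 0.05. Their medians were -0.03, 0.09 and -0.02.

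Some genes of motile cilia, the beating cilia that ependymal cells turn towards the ventricle, were among the increases at ZT13. Of 13 tested, 4 rose in the 20-array limma fit and none fell: Spata18, the axonemal dynein genes Dnah6 and Dnah12, and Cfap44. The list's median was 0.35, against 0.04 over all genes, and 11 of the 13 differences were positive. With 24 arrays none of the 13 passed and the median was 0.07, against -0.18 over all genes. In CON the same list had no gene higher, 3 lower and a median of -0.15. Nme5, Fam183b and Cfap43, ciliary genes outside the list that entered by the size of their change, rose too.

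Spata18 read 6.31, 5.21 and 6.23 log2 units at TSR ZT13 against 5.59, 5.47 and 5.64 at TSR ZT7, while all CON values lay between 6.61 and 6.94. Dnah6 read 6.25, 4.57 and 6.50 against 5.67, 5.81 and 5.66. In both genes the narrow array was the lowest of the 6 and the other ZT13 arrays lay above the ZT7 range, and those of Spata18 lay below all CON arrays. Both TSR ZT7 groups lay below the 5.86 at which the filter was set, which makes the size of these differences uncertain. The 20-array differences were 0.71 ± 0.13 for Spata18 (limma adjusted p = 0.00561) and 0.66 ± 0.13 for Dnah6 (adjusted p = 0.0126). With 24 arrays they were 0.35 ± 0.24 and 0.06 ± 0.34.

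Dnah12 read 7.12, 5.73 and 7.20 at TSR ZT13 against 6.75, 6.45 and 6.65 at TSR ZT7, and 6.85, 7.15 and 7.09 at CON ZT13 against 7.75, 7.73 and 7.51 at CON ZT7. Apart from the narrow array it was higher at ZT13 in TSR and lower at ZT13 in CON. Its 20-array limma difference was 0.54 ± 0.13 in TSR (adjusted p = 0.03) and -0.64 ± 0.12 in CON (adjusted p = 0.00129). Cfap44 differed by 0.38 ± 0.09 in TSR and -0.31 ± 0.08 in CON in the 20 arrays (limma adjusted p = 0.0269 and 0.0127), but by -0.05 ± 0.29 in TSR with 24 arrays.

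Nme5, which encodes a nucleoside diphosphate kinase relative of the axoneme, read 7.12, 6.56 and 7.26 at TSR ZT13 against 6.11, 6.50 and 6.53 at TSR ZT7. Fam183b read 6.49, 6.26 and 6.55 against 5.54, 5.78 and 6.06, and Cfap43 6.08, 6.60 and 6.14 against 5.69, 5.70 and 5.44. Here the narrow array also lay above all ZT7 arrays. These genes were chosen with the narrow array above the ZT7 mean, so nothing is read from its side. The ZT7 means of Fam183b and Cfap43 lay under the filter threshold, so the size of their differences is uncertain. The 20-array differences were 0.81 ± 0.18, 0.73 ± 0.19 and 0.50 ± 0.13 (limma adjusted p = 0.0199, 0.0425 and 0.0366).

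The summed level of the cilium list was 10.02 to 10.57 at TSR ZT13 (10.44 to 10.57 without the narrow array) against 10.14 to 10.19 at TSR ZT7, and 10.62 to 10.73 at CON ZT13 against 10.80 to 10.90 at CON ZT7. TSR mice at ZT7 thus had the least signal of the 4 groups when the narrow array is set aside. Foxj1, the master factor of motile cilia, had a mean under the filter and read 5.38, 5.92 and 5.54 at TSR ZT13 and 5.66, 5.57 and 5.37 at TSR ZT7. Among 10 other ependymal and tanycyte markers only the sodium-sensing channel gene Scn7a rose, by 0.72 ± 0.16 (20-array limma adjusted p = 0.018). Of these 10, 9 had a positive difference, with a median of 0.18. That list summed to 10.48 to 10.72 at TSR ZT13 (10.66 to 10.72 without the narrow array, above the ZT7 range) against 10.47 to 10.52 at TSR ZT7, and 10.69 to 10.71 at both CON ZT13 and CON ZT7. The part of the ventricular lining held in each dissection was not tested.

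Some glucocorticoid-responsive genes rose towards the dark phase, at whose start corticosterone peaks in mice. Of 16 tested, 4 rose and none fell in the 20-array limma fit, with a median of 0.21. They were Sgk1, a kinase that regulates sodium channels, the transcription factor Zbtb16, Fkbp5, a co-chaperone that restrains the glucocorticoid receptor, and Nfkbia, the inhibitor of NF-kB. In CON 10 of the 16 rose and 1 fell, with a median of 0.32. Over all genes 2.48% rose and 1.04% fell in TSR, and 10.4% rose and 5.37% fell in CON. The medians over all genes were 0.04 in TSR and 0.03 in CON.

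Sgk1 read 8.25, 7.22 and 8.50 log2 units at TSR ZT13 against 7.59, 7.60 and 7.70 at TSR ZT7, and 7.88, 8.28 and 8.27 at CON ZT13 against 6.78, 6.91 and 6.76 at CON ZT7. The TSR ZT7 arrays stood above all CON ZT7 arrays. The narrow array was the lowest of the TSR values. The 20-array limma differences were 0.75 ± 0.11 in TSR (adjusted p = 0.000618) and 1.33 ± 0.10 in CON (adjusted p = 1.73e-08).

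Zbtb16 showed the same arrangement, at 8.10, 7.27 and 8.17 at TSR ZT13 against 7.57, 7.42 and 7.61 at TSR ZT7, and 8.37, 8.33 and 8.37 at CON ZT13 against 7.19, 6.93 and 7.06 at CON ZT7. Its 20-array limma differences were 0.60 ± 0.09 (adjusted p = 0.00106) and 1.30 ± 0.08 (adjusted p = 2.13e-09). Fkbp5 rose by 0.55 ± 0.09 in TSR and 0.55 ± 0.08 in CON, and Nfkbia by 0.30 ± 0.08 and 0.28 ± 0.07. With 24 arrays the TSR differences of Sgk1, Zbtb16, Fkbp5 and Nfkbia were 0.36 ± 0.33, 0.31 ± 0.20, 0.18 ± 0.24 and 0.02 ± 0.20, and none passed. Tsc22d3, a glucocorticoid-induced regulator, differed by 0.21 ± 0.11 in TSR without passing (limma adjusted p = 0.273) and rose by 0.87 ± 0.10 in CON (adjusted p = 1.13e-05).

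Among transcripts that track sleep need, 4 of 13 rose and 2 fell in the 20 arrays. The risen ones were Sgk1, Homer1 and the cold-inducible Rbm3 and Cirbp, and the fallen ones were the endoplasmic reticulum chaperone Hspa5 and the clock gene Nr1d1. Hspa5 and Homer1 are known to rise with waking, and Rbm3 and Cirbp to fall with it. The list held genes shared with other lists, so its count is not separate from theirs.

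Hspa5 (BiP) read 10.33, 8.94 and 10.30 at TSR ZT13 against 10.81, 10.66 and 10.68 at TSR ZT7, and 10.14, 10.28 and 10.23 at CON ZT13 against 10.19, 10.23 and 10.03 at CON ZT7. TSR ZT7 was the highest of the 4 groups, and no TSR ZT13 array overlapped it. Hspa5 fell by 0.40 ± 0.07 in TSR (20-array limma adjusted p = 0.00424) and differed by 0.07 ± 0.06 in CON. It was the only 1 of 20 chaperones and stress factors of the endoplasmic reticulum to pass. Of the 20, 16 had a negative difference and 7 an unadjusted limma p under 0.05, with a median of -0.11. The change was more negative in TSR than in CON for 6 of them and more positive for 1. None of 19 cytosolic heat shock genes passed, 2 had an unadjusted limma p under 0.05, and their median was -0.01.

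Of 8 cold-inducible RNA-binding and splicing genes, 4 rose and none fell, with a median of 0.26. Rbm3 read 10.83, 8.59 and 10.76 at TSR ZT13 against 10.30, 10.33 and 10.41 at TSR ZT7, and Cirbp 8.50, 7.95 and 8.51 against 7.99, 8.06 and 8.20. In each the narrow array was the lowest of the 6 and the other ZT13 arrays the highest. Rbm3 differed by 0.45 ± 0.07 in the 20 arrays (limma adjusted p = 0.00085) and by -0.29 ± 0.63 in the 24. Cirbp rose by 0.42 ± 0.09 in the 20 arrays (adjusted p = 0.018) and the splicing kinases Clk1 and Clk4 by 0.48 ± 0.10 and 0.31 ± 0.08 (adjusted p = 0.0177 and 0.031). In CON Rbm3 fell by 0.21 ± 0.06 and Clk4 by 0.29 ± 0.07, while Cirbp and Clk1 did not pass.

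Immediate early genes, which neurons switch on within minutes of firing, gave 1 call between the 2 times in TSR. Of 15 tested, 1 rose and none fell, with a median of 0.01, whereas in CON 8 rose and none fell, with a median of 0.22. Over all genes 2.48% rose in TSR and 10.4% in CON. Homer1, which encodes a scaffold of glutamate synapses, was the 1 that rose. It read 8.78, 6.98 and 8.72 at TSR ZT13 against 8.43, 8.39 and 8.45 at TSR ZT7, and differed by 0.33 ± 0.08 in the 20 arrays (limma adjusted p = 0.0291) and -0.26 ± 0.42 in the 24. Fos had a mean under the filter and was not tested. It read 5.70, 5.57 and 5.64 at TSR ZT13 against 5.81, 5.99 and 5.80 at TSR ZT7, lower at ZT13 with no overlap, at levels around the filter threshold.

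Among core clock genes and their outputs 2 of 26 tested separated ZT13 from ZT7 in the sleep-restricted hypothalamus (7.69%, against 3.51% of all genes). Of 10 repressors tested, 1 fell and none rose, of 5 activators none passed, and of 11 output factors 1 rose and none fell, all in the 20-array limma fit. Nr1d1, which encodes the repressor REV-ERB alpha, was the gene that fell, and Lonrf3, a RING finger gene with a robust daily rhythm in many tissues, the one that rose. In CON 3 repressors rose and 1 fell, 2 activators fell, and 6 output factors rose. The difference between conditions passed for 1 repressor (Bhlhe40) and 3 output factors (Tef, Tsc22d3 and Usp2), all more negative in TSR, and for 1 activator (Rorb), more positive in TSR.

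Nr1d1 read 9.74, 8.91 and 9.73 log2 units at TSR ZT13 against 9.98, 9.97 and 9.97 at TSR ZT7, and 10.51, 10.51 and 10.50 at CON ZT13 against 10.80, 10.75 and 10.79 at CON ZT7. The times did not overlap in either condition, and every TSR array was below every CON array. The 20-array limma difference was -0.23 ± 0.06 in TSR (adjusted p = 0.0346) and -0.27 ± 0.05 in CON (adjusted p = 0.00163). Lonrf3 read 7.91, 6.87 and 8.10 at TSR ZT13 against 7.63, 7.50 and 7.50 at TSR ZT7, and differed by 0.47 ± 0.10 in the 20 arrays (adjusted p = 0.018) and 0.08 ± 0.31 in the 24.

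The period genes did not pass in TSR. Per1 read 7.86, 7.31 and 7.85 at TSR ZT13 against 7.57, 7.59 and 7.67 at TSR ZT7, and 8.56, 8.57 and 8.53 at CON ZT13 against 8.25, 8.36 and 8.07 at CON ZT7. Per2 read 7.18, 6.95 and 7.10 against 7.05, 6.93 and 7.08 in TSR, and 7.82, 8.04 and 8.05 against 7.48, 7.62 and 7.66 in CON. For both genes the CON groups did not overlap. The TSR groups overlapped through the narrow array alone, and the other ZT13 arrays lay above the ZT7 range. TSR arrays were lower than CON arrays at each time. The 20-array limma differences in TSR were 0.25 ± 0.09 for Per1 (adjusted p = 0.119) and 0.12 ± 0.09 for Per2 (adjusted p = 0.439). In CON they were 0.32 ± 0.08 (adjusted p = 0.0107) and 0.38 ± 0.08 (adjusted p = 0.00409). The TSR change minus the CON change was -0.08 ± 0.12 for Per1 and -0.26 ± 0.12 for Per2, and neither passed (limma adjusted p = 0.723 and 0.168).

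The other limbs of the clock gave no further call in TSR. The repressors Cry1, Cry2, Bhlhe41, Per3, Ciart, Bhlhe40 and Nr1d2 differed by 0.25, 0.12, 0.29, -0.05, -0.04, -0.23 and -0.16 log2 units in the 20 arrays, and none passed. Among the activators Arntl, which encodes BMAL1, differed by 0.28 ± 0.12, Arntl2 by 0.32 ± 0.11 and Clock by 0.05 ± 0.09. The orphan receptor gene Rorb differed by 0.18 ± 0.09 in TSR and fell by 0.48 ± 0.08 in CON (limma adjusted p = 0.000599). Dbp, an output factor that E-boxes drive, read 8.17, 8.35 and 8.40 at TSR ZT13 against 8.43, 8.42 and 8.46 at TSR ZT7, a difference of -0.15 ± 0.09 that did not pass (adjusted p = 0.306). The ubiquitin protease Usp2 differed by -0.02 ± 0.09 in TSR and rose by 0.58 ± 0.08 in CON (limma adjusted p = 7.58e-05). None of 9 kinases and ubiquitin ligases of the clock passed in TSR. At an unadjusted limma p under 0.05 there were 2 of these 9 and 2 of the 5 activators.

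**Figure D3:**
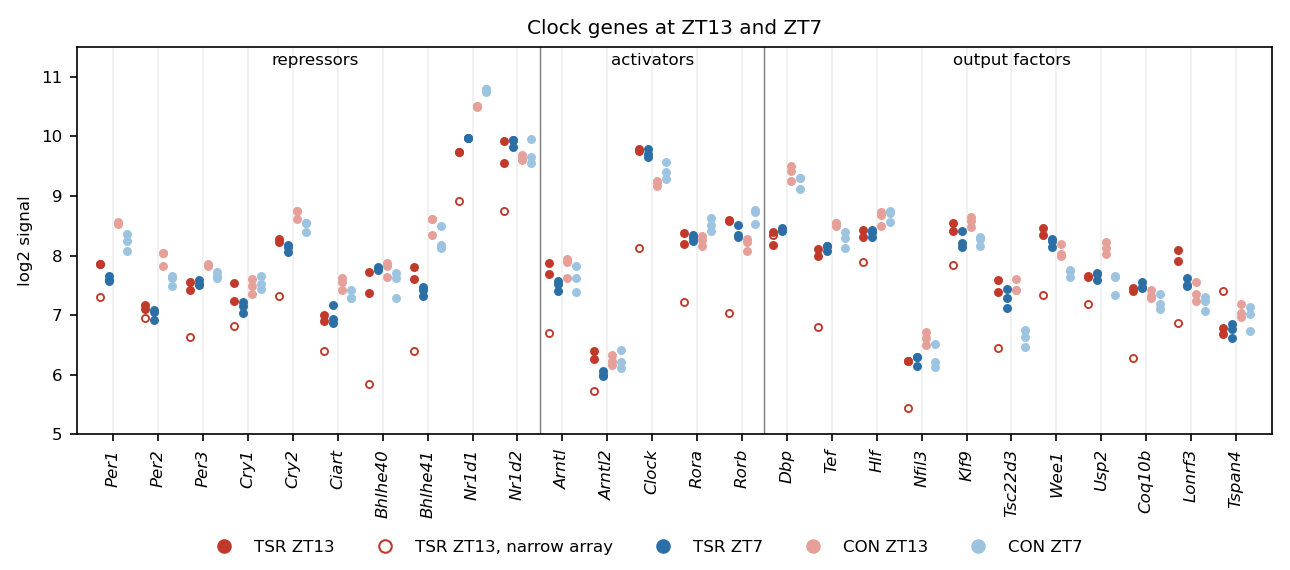
Log2 signal of each array for 10 clock repressors, 5 activators and 11 output factors in TSR ZT13, TSR ZT7, CON ZT13 and CON ZT7, with the narrow TSR ZT13 array as an open circle. Nr1d1 lies lower at ZT13 than at ZT7 in both conditions, and for Per1, Per2 and Dbp the TSR points lie below the CON points.

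Promoters of the clock genes that passed in TSR, Nr1d1 and Lonrf3, are shown beside those of Ciart and Per1, which did not pass. The E-box CACGTG is the site through which CLOCK and BMAL1 act. Each line gives the 250 bases before the transcription start in RefSeq on GRCm38.p6, 5′ to 3′ on the gene's strand, with CACGTG in capitals. Nr1d1 covers chr11:98775378-98775627 (minus strand), Lonrf3 chrX:36328159-36328408 (plus), Ciart chr3:95882229-95882478 (minus) and Per1 chr11:69098699-69098948 (plus).
Nr1d1: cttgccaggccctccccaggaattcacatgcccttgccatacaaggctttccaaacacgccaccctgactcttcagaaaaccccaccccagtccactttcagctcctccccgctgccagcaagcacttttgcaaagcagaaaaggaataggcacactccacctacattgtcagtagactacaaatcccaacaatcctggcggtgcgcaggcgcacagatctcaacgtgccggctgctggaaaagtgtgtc
Lonrf3: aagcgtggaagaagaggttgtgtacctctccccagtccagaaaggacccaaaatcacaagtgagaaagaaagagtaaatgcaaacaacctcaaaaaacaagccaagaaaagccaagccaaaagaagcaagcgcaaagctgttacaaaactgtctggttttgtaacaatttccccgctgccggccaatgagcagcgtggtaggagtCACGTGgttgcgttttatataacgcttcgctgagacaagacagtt
Ciart: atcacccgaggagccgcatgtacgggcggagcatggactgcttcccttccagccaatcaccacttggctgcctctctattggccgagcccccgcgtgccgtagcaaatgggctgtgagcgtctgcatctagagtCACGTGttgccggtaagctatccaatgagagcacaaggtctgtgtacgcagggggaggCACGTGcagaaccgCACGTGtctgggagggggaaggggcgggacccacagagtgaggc
Per1: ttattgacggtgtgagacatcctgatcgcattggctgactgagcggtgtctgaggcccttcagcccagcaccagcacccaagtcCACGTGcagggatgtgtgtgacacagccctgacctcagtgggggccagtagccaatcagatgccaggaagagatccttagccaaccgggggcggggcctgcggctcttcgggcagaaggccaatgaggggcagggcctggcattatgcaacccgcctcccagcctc
Ciart, a repressor of CLOCK and BMAL1, held 3 matches and did not pass in TSR (-0.04 ± 0.11). Lonrf3 and the window of Per1 printed held 1 match each, and the window of Nr1d1 held none. Per1 has another start in RefSeq, and its window, chr11:69099902-69100201, held none.

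Over both strands of windows of 250 bases before and 50 after the start, CACGTG occurred in 12 of the 30 named clock and heat shock genes with a promoter entry, against 7.15% of all 32851 promoters. The D-box TTATGTAA occurred in 2 of the 30 (0.938% of all), the cAMP response element TGACGTCA in 1 (1.79%) and the heat shock pair GAANNTTC in 2 (7.86%). A match describes letters in these windows and is not a tested site, and a gene can have several windows.

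The suprachiasmatic markers were mixed. Of 13 tested, Rasd1 and the synaptotagmin gene Syt10 rose and Avp fell in TSR, with a median of 0.12, while in CON 4 rose and 5 fell. Syt10 read 9.50, 7.52 and 9.59 at TSR ZT13 against 9.24, 9.33 and 9.29 at TSR ZT7, a difference of 0.26 ± 0.07 in the 20 arrays (limma adjusted p = 0.0483) and -0.42 ± 0.46 in the 24. In CON Syt10 fell by 0.31 ± 0.06 (adjusted p = 0.00285).

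Several groups gave no call or few in TSR. None of 16 receptors of appetite and energy balance, 16 cholesterol synthesis genes, 29 genes of the mitochondrial respiratory chain, 16 GABA-A and glutamate receptors, 19 potassium and sodium channels, 8 small noncoding RNAs and 7 choroid plexus and plasma protein genes passed in the 20-array limma fit. In that order 4, 1, 5, 5, 4, 2 and 3 of them had an unadjusted p under 0.05. Their medians lay between -0.17 and 0.16. Of 21 cytosolic ribosomal proteins Rps18 and Rpl30 rose. Rps18 read 10.86, 9.37 and 10.99 at TSR ZT13 against 10.46, 10.42 and 10.54 at TSR ZT7, a difference of 0.45 ± 0.08 in the 20 arrays (adjusted p = 0.00309) and -0.07 ± 0.52 in the 24. Counts for every list with 5 or more tested members are drawn in the plot of list medians.

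**Figure D4:**
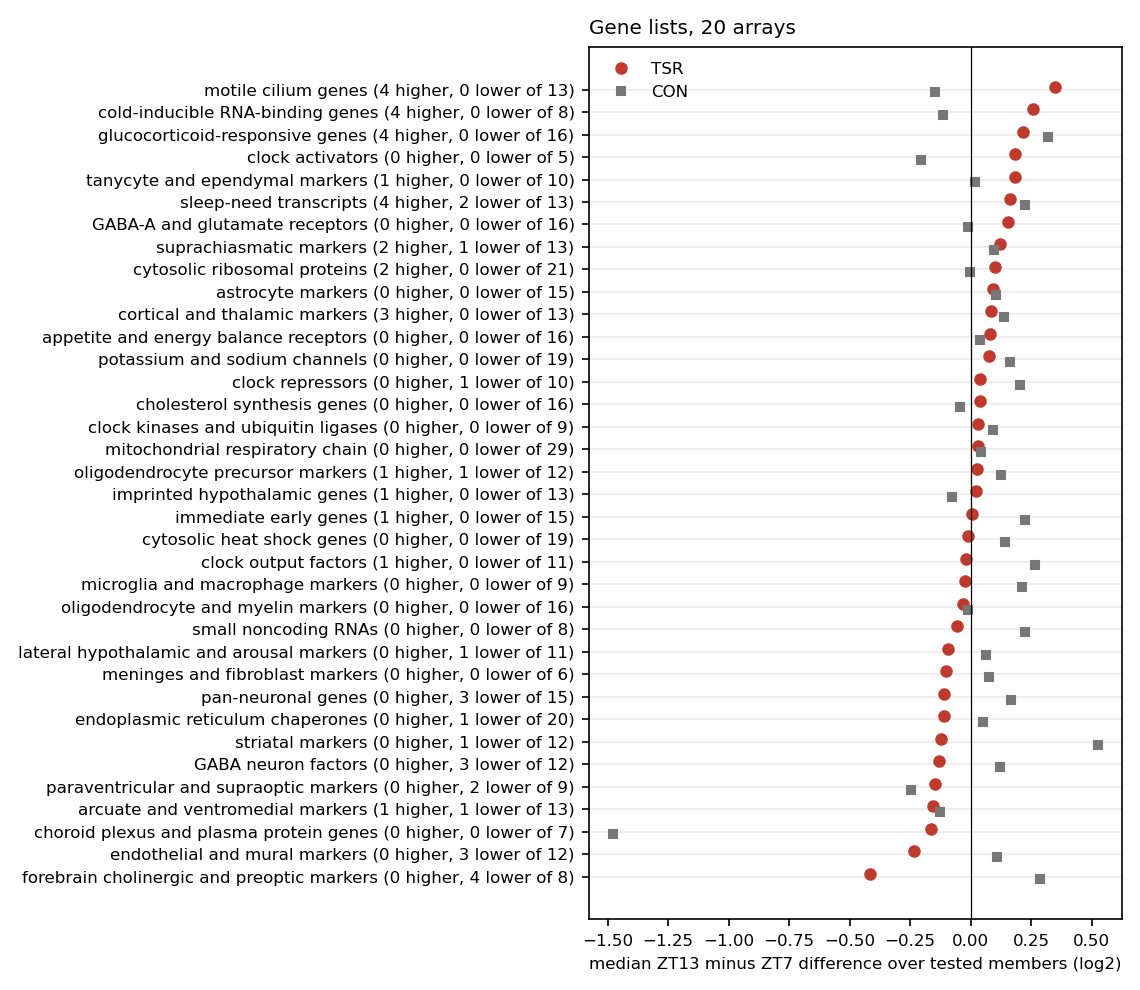
Median ZT13 minus ZT7 difference in log2 units over the tested members of each gene list, in TSR (red circles) and CON (grey squares), from the 20-array fit, with the TSR counts of members called beside each name. TSR medians run from -0.41 for forebrain cholinergic markers to 0.35 for motile cilium genes, and the CON median of plasma protein genes is -1.48.

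Whether the change over these hours differed between sleep-restricted and undisturbed mice was tested directly, as the TSR difference minus the CON difference. Genes of striatal neurons and activity-regulated genes rose towards ZT13 in CON and mostly did not pass in TSR. For Meis2 the TSR ZT7 values lay near the CON ZT13 values. For Ppp1r1b, Ddn and Egr1 they lay between the CON ZT7 and the CON ZT13 values. Slc17a7 rose in TSR and differed by -0.02 ± 0.11 in CON. In the 24-array limma fit 4 genes passed (0.0337%), Slc17a7, Ppp1r1b, Ddn and Egr1, and 279 had an unadjusted p under 0.05. In the 20-array fit 1708 passed, 7.72% of all genes with a more positive change in TSR and 6.67% with a more negative one.

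More genes separated the 2 times in CON than in TSR in the 20 arrays, 10.4% higher and 5.37% lower at ZT13. The TSR contrast rested on 2 ZT13 arrays there and the CON contrast on 3, so the counts are not alike in power. Of the 417 genes called in TSR, 30 were called in CON in the same direction, 105 in the opposite direction and 282 were not called in CON. The difference between conditions passed for 295 of the 417, and for 1708 of all 11871 genes. The TSR change that chose the 417 is part of this difference, so nothing is read from the 295.

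Ppp1r1b, which encodes the striatal phosphatase inhibitor DARPP-32, read 6.97, 7.29 and 6.99 at TSR ZT13 against 7.30, 7.23 and 7.25 at TSR ZT7, and 7.99, 7.77 and 7.85 at CON ZT13 against 6.46, 6.18 and 6.71 at CON ZT7. The TSR groups overlapped and the CON groups were far apart. The difference between conditions was -1.60 log2 units in the 24-array limma fit (adjusted p = 0.00567) and -1.70 ± 0.17 in the 20-array fit (adjusted p = 3.55e-06).

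Ddn, which encodes the dendritic protein dendrin, read 7.16, 6.53 and 7.41 at TSR ZT13 against 7.35, 7.40 and 7.27 at TSR ZT7, and 8.29, 8.34 and 8.42 at CON ZT13 against 6.75, 6.28 and 6.51 at CON ZT7. The difference between conditions was -2.14 with 24 arrays (limma adjusted p = 0.00567) and -1.89 ± 0.17 with 20. Egr1, an immediate early transcription factor, read 6.82, 6.81 and 6.86 at TSR ZT13 against 7.03, 7.01 and 7.07 at TSR ZT7, and 7.37, 7.21 and 7.18 at CON ZT13 against 6.35, 6.06 and 6.30 at CON ZT7. In TSR the Egr1 values lay within narrow bands that did not overlap, ZT13 below ZT7, though the change in TSR did not pass (-0.20 ± 0.09, 20-array limma adjusted p = 0.21). Its difference between conditions was -1.23 with 24 arrays (adjusted p = 0.0178) and -1.22 ± 0.12 with 20.

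Striatal markers moved together with these genes. Of 12 tested, 1 fell and none rose in TSR (Pde10a, a phosphodiesterase of striatal neurons), while 10 rose and none fell in CON, and for 8 the change was more negative in TSR. Over all genes 1.04% fell in TSR, 10.4% rose in CON and 6.67% had a more negative change in TSR. The list's summed level was 11.21 to 12.47 at TSR ZT13 (12.36 to 12.47 without the narrow array) against 12.44 to 12.50 at TSR ZT7, and 12.47 to 12.52 at CON ZT13 against 11.84 to 11.93 at CON ZT7. The CON ZT7 group thus had the lowest level of the 4 once the narrow array is set aside. Meis2, a transcription factor of striatal and other forebrain neurons, read 8.66, 7.04 and 8.88 at TSR ZT13 against 8.55, 8.76 and 8.78 at TSR ZT7, and 8.57, 8.62 and 8.69 at CON ZT13 against 6.77, 6.69 and 6.37 at CON ZT7. Only the CON ZT7 arrays and the narrow array were low. The part of striatal tissue in these differences was not tested.

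The dopamine receptor genes Drd1 and Drd2 differed between conditions by -1.17 ± 0.16 and -0.99 ± 0.15 in the 20 arrays (limma adjusted p = 0.000119 and 0.000279), and the transcription factor Lhx6 by -1.08 ± 0.11. The kinase gene Ptk2b differed by -1.26 ± 0.12, the postsynaptic anchoring protein gene Akap5 by -1.0 ± 0.13, Wfs1, which encodes an endoplasmic reticulum protein, by -0.97 ± 0.09, and Sowaha by -0.94 ± 0.16. In each of these genes CON rose towards ZT13. Wfs1 and Lhx6 fell in TSR (-0.33 ± 0.07 and -0.38 ± 0.08, adjusted p = 0.0157 and 0.0137), and the others did not pass there.

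Genes with a more positive change in TSR included Ttr, which encodes the thyroid hormone carrier transthyretin of choroid plexus and plasma. It read 6.58, 5.89 and 6.73 at TSR ZT13 against 6.56, 6.41 and 6.48 at TSR ZT7, and 5.62, 5.25 and 5.48 at CON ZT13 against 6.88, 7.01 and 6.89 at CON ZT7. The difference between conditions was 1.64 ± 0.20 in the 20 arrays (limma adjusted p = 3.59e-05). Of the 7 plasma and choroid plexus genes 5 fell in CON and none in TSR, and 4 differed between conditions, all more positive in TSR. Over all genes 5.37% fell in CON, 1.04% fell in TSR and 7.72% had a more positive change in TSR. Alb, the albumin gene, fell by 2.25 ± 0.13 in CON (adjusted p = 1.36e-09) and differed by -0.54 ± 0.15 in TSR (adjusted p = 0.0514). Whether plasma or choroid plexus was held unequally was not tested.

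Wsb1, which encodes a substrate adaptor of a ubiquitin ligase, read 11.23, 9.86 and 11.31 at TSR ZT13 against 10.90, 10.95 and 10.85 at TSR ZT7, and 10.28, 10.46 and 10.44 at CON ZT13 against 10.95, 11.13 and 10.91 at CON ZT7. Apart from the narrow array, TSR rose and CON fell. The noncoding transcript DQ267102 showed the same pattern. Their differences between conditions were 0.97 ± 0.09 and 1.24 ± 0.12 in the 20 arrays (limma adjusted p = 1.54e-06 and 2.61e-06).

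The predicted gene Gm10874 and the uncharacterised gene A530032D15Rik had the opposite sign with and without the narrow array. Gm10874 read 6.89, 11.84 and 6.81 at TSR ZT13 against 7.62, 7.69 and 7.78 at TSR ZT7, and A530032D15Rik read 6.10, 10.32 and 5.95 against 7.01, 6.93 and 6.92. The narrow array was far above every other array for both, and the other ZT13 arrays were below ZT7. In TSR they fell by 0.85 ± 0.10 and 0.93 ± 0.10 in the 20 arrays (limma adjusted p = 8.39e-05 and 4.72e-05) and differed by 0.82 ± 1.07 and 0.51 ± 0.86 in the 24. The differences between conditions in the 20 arrays were -1.50 ± 0.13 and -1.46 ± 0.13.

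**Figure D5:**
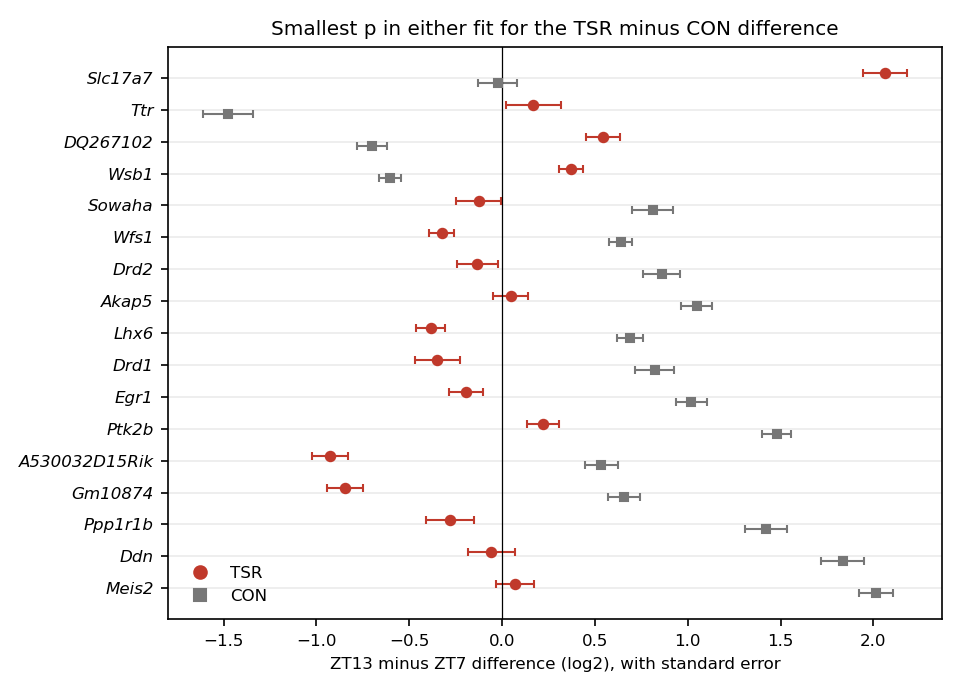
ZT13 minus ZT7 difference in log2 units, with its standard error, in TSR (red circles) and CON (grey squares) from the 20-array fit, for the 17 genes among the 10 smallest p-values for the difference between conditions in either the 24-array or the 20-array fit. Slc17a7 differed by 2.06 in TSR and -0.02 in CON, while Meis2, Ddn, Ppp1r1b and Ptk2b rose in CON by 1.42 to 2.01 log2 units and differed by -0.28 to 0.22 in TSR.

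At the level of lists, the test of the difference between conditions gave the following counts in the 20 arrays. The change was more positive in TSR for 8 of 13 motile cilium genes and none was more negative, with a median of 0.53, and for 5 of 8 cold-inducible genes, with a median of 0.47. It was more negative in TSR for 5 of 8 cholinergic markers, 8 of 12 striatal markers, 9 of 15 pan-neuronal genes, 5 of 12 endothelial and mural markers and 5 of 15 immediate early genes. In those lists only the pan-neuronal one held a gene, 1, with a more positive change. Over all genes tested 7.72% had a more positive change in TSR and 6.67% a more negative one, and the median of this difference was -0.00.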

How the data were processed

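Mediobasal hypothalamus RNA of 24 mice was measured on 24 Affymetrix arrays. The authors deposited 1 table of log2 signals for 35556 probe sets, made with Affymetrix Expression Console per the submitters' processing notes. Neither its version nor the summarisation and normalization methods are stated in the labels used here. Groups were taken from the labels. In 2764 of 853344 cells (0.324%) the value was restored with the help of the probe set's other arrays. Of these, 14 had become dates and were decoded, and in the rest the decimal point was misplaced. A further 48 cells that could not be settled were set to missing. The restoration recovered 890 of 890 cells shifted on purpose. These were restored values shifted by the rules that the restoration assumes, so the check covers the code and not the true values. Among probe sets with 1 gene symbol, 169 restored cells fell in the 6 TSR arrays compared. GEO's platform annotation named 21789 probe sets with 1 gene symbol, 1621 with several and 12146 with none. Those with several or none were not named. Of the 21789, 21698 were matched to RefSeq by gene ID. For each of 19938 genes the probe set of highest mean was kept, and the 11871 genes with a mean above 5.86 log2 units, percentile 40, were tested.

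limma 3.58.1 in R 4.3.3 was fitted to 8 group means with trended empirical Bayes moderation, 2-sided, with Benjamini-Hochberg adjustment over all genes tested and a threshold of 0.05. No fold threshold was set. The model was fitted to 24 arrays and to 20, leaving out the 4 arrays with an interquartile range under 2.5 log2 units. The scripts were tested on simulated data. Named genes were the 12 largest increases and decreases called with all values on one side (in the 20 arrays, with the narrow array on the same side of the ZT7 mean), the 10 smallest p-values of the difference between conditions in each fit, all tested clock genes, and up to 5 members of each other list by moderated t. Marker genes under the filter are named for their levels only. A list's summed level is the log2 of the summed linear signals of its members with a probe set. Of 575 members of 38 lists, 437 were tested and 70 lay under the filter. The members and lists were chosen with earlier results of these data known. Alternatives covered the arrays, filter, probe set choice, normalization, moderation, array weights, samples in the fit, replicate block, decimal restoration and threshold.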

Additional observations from a re-analysis of the deposited data

Results flagged for a closer look

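The difference between sleep-restricted and undisturbed mice in the ZT13 minus ZT7 change passed its own test for 61 of the 97 genes named in the text in the 20 arrays. Over all genes 1708 of 11871 passed. Many of the 97 were chosen by that test or by the TSR change it contains, so nothing is read from the 61. The 17 given here were among the 10 smallest p-values of that test in either fit. In the fit to all 24 arrays these were Slc17a7 at 1.74 log2 units, Ppp1r1b at -1.60, Ddn at -2.14 and Egr1 at -1.23, the TSR change minus the CON change.

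In the 20-array fit the change was more positive in TSR for Slc17a7 (2.09), Ttr (1.64), DQ267102 (1.24) and Wsb1 (0.97). It was more negative in TSR for Meis2 (-1.94), Ddn (-1.89), Ppp1r1b (-1.70), Gm10874 (-1.50), A530032D15Rik (-1.46), Ptk2b (-1.26), Egr1 (-1.22), Drd1 (-1.17), Lhx6 (-1.08), Akap5 (-1.0), Drd2 (-0.99), Wfs1 (-0.97) and Sowaha (-0.94). The levels behind each are given with the comparison of conditions.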

How the results depend on the processing

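The count of genes that separated ZT13 from ZT7 in TSR depended first on the narrow arrays: 1 with 24 arrays, 417 without the 4 narrow ones, 756 when those 20 were quantile normalized again (379 higher and 377 lower, against 70.5% higher before) and 1381 with array weights. It was 0 with the filter at the median, which left the 1 gene, Slc17a7, untested, with only the 12 TSR arrays and with only the arrays compared (limma, with 129, 96 and 76 genes at an unadjusted p under 0.05; in these last 2 settings Slc17a7 kept its difference of 1.72, with adjusted p = 0.202 and 0.897), and 1 under every other alternative that kept all 24. With 1 of the 24 arrays left out the count was 1, or 2 without TSR ZT1 replicate 3. It was 1 when only the narrow TSR ZT13 replicate 2 was dropped. With 1 more left out of the 20 it ran from 46 to 825: it was 46 without TSR ZT13 replicate 3, 134 without replicate 1, 86, 155 and 133 without TSR ZT7 replicates 1, 2 and 3, and 730 and 825 without CON ZT7 replicates 2 and 3.

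The count of genes that differed between conditions was 4 with 24 arrays, 1708 with 20, 2347 with those normalized again, 2387 with array weights, 16 with the 24 normalized again and 2 at an adjusted p of 0.01. With 1 of the 24 left out it ran from 2 to 15, with 15 when TSR ZT1 replicate 3 was dropped, 2 when any of TSR ZT7 replicates 1, 2 and 3, TSR ZT13 replicates 1 and 3, CON ZT7 replicate 2 and CON ZT13 replicates 1 and 2 was dropped. With 1 more of the 20 left out it ran from 881 to 2388, with 881 when TSR ZT13 replicate 3 was dropped. The replicate block gave 1 and 3 genes. Arrays of the same number had deviations correlated at -0.10, -0.03 and 0.09, against -0.13 to 0.12 for arrays of different numbers. The narrow array entered the ZT13 means from which these deviations were taken, so the correlations cannot decide on pairing. Arrays of the same number were not treated as pairs.

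The sign of 10 named genes in TSR turned between the 24-array fit and the 20-array fit, the 20 arrays normalized again and array weights, in that order: Gm10874 (-0.85, -0.89, -0.80), A530032D15Rik (-0.93, -0.91, -0.86), Wsb1 (0.37, 0.36, 0.34), Cfap44 (0.38, 0.33, 0.38), Rbm3 (0.45, 0.38, 0.46), Clk4 (0.31, 0.26, 0.29), Homer1 (0.33, 0.25, 0.34), Pdgfra (0.29, 0.24, 0.26), Rps18 (0.45, 0.41, 0.41) and, in the 20-array fit, Syt10 (0.26). The difference between conditions of Gm10874 turned likewise (-1.50, -1.51, -1.41). Over the fits that left out 1 of the 24 arrays or 1 more of the 20, these ran from -0.89 to 1.67 for Gm10874 (-1.55 to 1.01 between conditions), -1.01 to 1.26 for A530032D15Rik, -0.35 to 0.41 for Wsb1, -0.27 to 0.39 for Cfap44, -0.67 to 0.48 for Rbm3, -0.33 to 0.35 for Clk4, -0.57 to 0.36 for Homer1, -0.31 to 0.36 for Pdgfra, -0.36 to 0.51 for Rps18 and -0.78 to 0.30 for Syt10. The narrow TSR ZT13 replicate 2 is the only array of the TSR comparison that the 20-array fit leaves out, so these signs turned with its values. Over the fits that dropped 1 more of the 20 alone, Gm10874 ran from -0.89 to -0.80 and Rbm3 from 0.42 to 0.48. Why that array differed was not tested.

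All 62 genes named in the text and called in TSR in the 20 arrays kept their sign in the 11 fits that dropped 1 more array. Dropping a CON array leaves the TSR difference unchanged, at 2.06 log2 units for Slc17a7, so only fits without a TSR array bear on the sign. Genes taken by the naming rule had their remaining ZT13 values on one side of all ZT7 values. Their sign was therefore fixed beforehand, and nothing is read from it. The size moved, from 1.96 to 2.17 for Slc17a7, -1.09 to -0.69 for Slc5a7 and 0.33 to 0.87 for Thyn1. Dropping a further ZT13 array leaves 1 in that group, so calls over these fits are not counted. The 3 arrays of a group, and 2 where the narrow one is dropped, limit what these data can show. Levels near 5.86 log2 units were not shown to stand above background.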
